A study of Caenorhabditis elegans with 4 samples.

Results

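The sites described here are the 447 regions in the centre of chromosome V at which C34F6.9, which the labels call a transcription factor, was mapped in larvae of the nematode *Caenorhabditis elegans* by chromatin immunoprecipitation and sequencing (ChIP-seq). They were chosen by position alone: every peak of the combined list whose midpoint lies on V from 7 to 14 Mb, in WormBase build WS220. These are 447 of the 934 combined peaks on V and 6.88% of the 6494 in the whole list. The left arm held 275 and the right arm 212. The same limits took in 2001 of 29725 peaks of ChIP replicate 1 and 1855 of 23374 peaks of ChIP replicate 2.

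All larvae were hermaphrodites of strain OP324, which carries the mutation unc119(ed3) and the transgene wgIs324, grown at 20 degrees Celsius to the second larval stage, L2. The transgene, brought in by biolistic transformation of unc-119(ed3) worms and outcrossed 0 times, holds unc119 and C34F6.9::TY1 EGFP FLAG, that is C34F6.9 joined to green fluorescent protein (EGFP) and to the TY1 and FLAG tags. Antibodies against the fluorescent protein collected the bound chromatin. All 4 samples are from this strain: 2 were immunoprecipitated (ChIP) and 2 are the input, unselected DNA of the same chromatin. Input lists were not analysed here, nor was a strain without the tag. The chromatin came from whole larvae, so the cell types in which a site was bound are not known. Whether the replicates were separate cultures is not stated, so their spread may be technical.

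The autosomes of *C. elegans* have a gene-rich centre in which crossovers are rare, flanked by arms that are richer in repeats and in crossovers. The arms of chromosome V are also known for large families of chemoreceptor genes, which have multiplied in nematodes. A ChIP-seq peak marks a stretch of DNA that was recovered more often than its surroundings. It can reflect direct contact of the protein with DNA or contact through other proteins. No gene annotation or genome sequence of build WS220 was used, so sites are named by position and by peak number, the number in each deposited peak's name. Low numbers stand mostly for high scores. The score itself separates few of the sites, since 341 of the 447 (76.3%) share its highest value, 3.50. In the arms 344 of 487 (70.6%) did. The share over the whole list is not given here, and the difference was not tested.

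The combined peaks were packed more densely in the centre of V than in its arms. The centre carried 63.9 peaks per Mb (58.1 to 70.1, exact 95% Poisson interval) and the arms together carried 34.98 (31.9 to 38.2). The left arm had 39.3 per Mb (34.8 to 44.2) and the right arm 30.6 (26.6 to 35.0). The density ratio of centre over arms was 1.83 (1.60 to 2.08, exact binomial test against the share of length, two-sided, adjusted p = 2.6e-19 by the Benjamini-Hochberg method over 10 tests). Combined peaks covered 2.45% of the centre and 1.30% of the arms. Intervals and p-values here and in what follows take in counting error alone. Peaks also vary together along the chromosome. Over the 7 windows of 1 Mb in the centre, the variance of the combined count was 3.33 times its mean. Over the 13 full windows of the arms it was 9.98 times. For replicate 1 the values were 12.03 in the centre and 23.5 in the arms, and for replicate 2 they were 9.66 and 24.2. The intervals are therefore likely too narrow and the p-values too small, above all for the replicates.

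Both replicates showed the same direction, with a larger ratio in replicate 2. Replicate 1 had 286 peaks per Mb in the centre and 198 in the arms, a ratio of 1.45 (1.37 to 1.53, exact binomial adjusted p = 1.1e-34). Replicate 2 had 265.0 and 147, a ratio of 1.81 (1.70 to 1.92, exact binomial adjusted p = 3.6e-73). The intervals of the replicates do not overlap, but they take in counting error alone. With as many peaks taken from the top of each replicate list as the combined list holds, the ratios were 1.95 in replicate 1 and 2.08 in replicate 2. The lists have different lengths and come from partly shared sites, so the difference between the ratios was not tested. Read depth is unknown.

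The density was not even within the centre. From left to right, its 7 windows of 1 Mb held 40, 52, 67, 81, 78, 70 and 59 combined peaks. The highest counts lay from 10 to 12 Mb and the lowest in the first window. Replicate 1 followed with 181, 252, 294, 342, 356, 301 and 275 peaks, and replicate 2 with 178, 228, 286, 316, 323, 262 and 262. Within the centre, all 3 lists thus had their lowest window from 7 to 8 Mb and their highest from 10 to 12 Mb.

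The limits of 7 and 14 Mb did not mark a break in density. Just outside the right limit, the window from 14 to 15 Mb held 72 combined peaks, more than 5 of the 7 centre windows. The window from 15 to 16 Mb held 32, and the one from 17 to 18 Mb held 6. On the left, the window from 6 to 7 Mb held 57, more than the first 2 windows of the centre. Arm windows had a median of 32 and a range of 6 to 72, while centre windows had a median of 67 and a range of 40 to 81. The ranges overlap: 4 of 13 arm windows reached the lowest count of the centre in the combined list, as did 8 of 13 in replicate 1 and 4 of 13 in replicate 2. The last stretch of V, 0.921 Mb long and not a full window, held 50 combined peaks, or 54.3 per Mb. At the limits themselves, the nearest peaks outside were number 3809, 1.55 kb to the left, and number 6306, 2.09 kb to the right. The nearest ones inside were number 364, 60.5 kb in, and number 3672, 37.8 kb in.

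**Figure D1:**
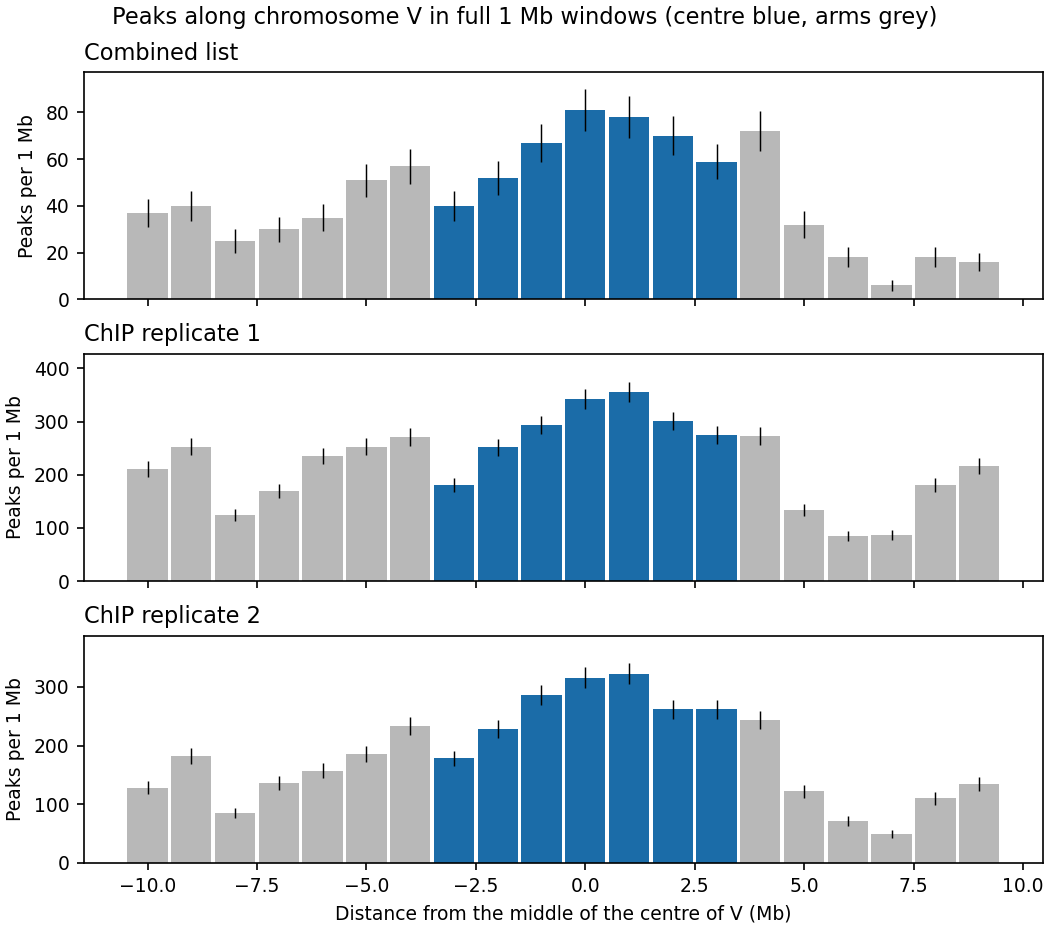
Peaks per full 1 Mb window along chromosome V in the combined list and in each ChIP replicate, against distance in Mb from the middle of the centre, with bars for the square root of each count. In the combined list the centre windows (blue) run from 40 to 81, and the first arm window (grey) to their right reaches 72.

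At a scale of 100 kb, peaks were spread over almost all of the centre. Of its 70 windows, 3 were empty (4.29%), against 31 of 139 in the arms (22.3%). The median window held 6 combined peaks in the centre and 2 in the arms, and 13 centre windows (18.6%) and 8 arm windows (5.76%) held 10 or more. The densest window of the centre, from 10800001 to 10900000, held 15 combined peaks, none of them overlapping, with 57 peaks of replicate 1 and 48 of replicate 2. Next came 3 windows with 12 each, starting at 9500001, 11500001 and 11800001. The densest single window of V was not in the centre, as an arm window reached 19.

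**Figure D2:**
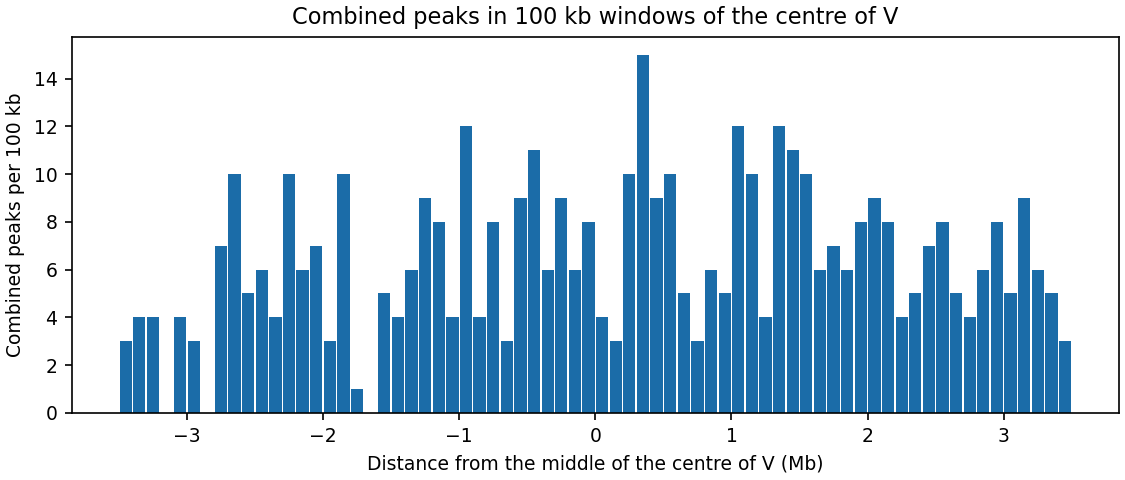
Combined peaks per 100 kb window of the centre of V, against distance in Mb from its middle. The tallest bar stands at 15 peaks, and the 3 empty windows lie on the left side, where the longest peak-free stretches are found.

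The longest stretches without a combined peak lay in the left part of the centre. The longest ran for 198 kb, from 7237413 to 7435122, where even spacing over the centre would place 12.6 peaks. Counting only peaks that overlap no combined peak, replicate 1 had 13 there, the best of them number 8604, and replicate 2 had 14, the best of them number 8553. This stretch was therefore sparse in replicate peaks too, with 65.8 and 70.8 per Mb. The second ran for 161 kb, from 8774231 to 8934819. Replicate 1 had 33 such peaks in it and replicate 2 had 27, but they stood toward its ends. From 8805509 to 8898942, a run of 93.4 kb, none of the lists had a peak. The third ran for 139 kb, from 8949757 to 9088652, with 25 and 30 such peaks. In all, 6 stretches of the centre exceeded 100 kb, and the arms held 31, the longest of 892 kb.

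Some neighbouring sites lay close together, in part because listed peaks overlap. The median distance between midpoints of neighbouring combined peaks was 7.18 kb in the centre, with quartiles of 2.00 and 20.4 kb, and 9.23 kb in the arms, with quartiles of 2.30 and 32.9 kb. At most 1 kb separated 52 of 446 neighbours in the centre (11.7%) and 49 of 485 in the arms (10.1%). These include 24 pairs of overlapping peaks in the centre and 25 in the arms. The spacing of close neighbours thus differed little in value between centre and arms, and the larger difference was in the upper quartile.

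When peaks separated by at most 2 kb were joined, 205 of the 447 centre peaks (45.9%) fell into 78 clusters, and 242 stood alone. In 67 of the 78, at least 2 separate regions remained once overlapping peaks were merged, and the other 11 were single regions made of overlapping peaks. Of the clusters, 48 had 2 peaks, 17 had 3 and 13 had 4 or more. In the arms 192 of 487 peaks (39.4%) fell into 68 clusters, 62 of which held at least 2 separate regions. The number of clusters follows the density, so it was not tested.

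The largest cluster of the centre held 7 peaks in 8.05 kb, from 10715601 to 10723650. Its best peak, number 395, lay at its left end and was 547 bp wide, with partners numbered 675 in replicate 1 and 249 in replicate 2. The other members were numbers 1409, 2912, 3231, 4138, 4749 and 6411, each 456 bp wide. All 7 overlapped a peak in both replicates, which had 10 and 9 peaks over the cluster. The cluster thus joined 1 high-ranked site to a row of lower-ranked ones. The second held 6 peaks in 6.73 kb, from 12024388 to 12031119, and its best was number 1480. The third held 5 peaks in 4.70 kb, from 10464769 to 10469469, and its best was number 205. Some of these peaks overlap each other: merged, the 3 clusters hold 6, 5 and 4 separate regions.

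The 447 peaks are not 447 separate regions. In the centre, 24 pairs of combined peaks overlapped, involving 48 peaks (10.7%), and in the arms 25 pairs involved 50 peaks (10.3%). Merging overlapping peaks left 423 regions in the centre and 462 in the arms, and the density ratio was 1.82. Of the 24 centre pairs, 19 overlapped in part, in 2 pairs 1 peak lay inside the other, and in 3 pairs both peaks had the same start and end under different numbers. These 3 regions are 8606212 to 8606692, listed as numbers 86 and 4717, 9344112 to 9344676, listed as 37 and 481, and 10961380 to 10961787, listed as 674 and 1839. Over the first of them, peak numbers 86 and 4717 share the partners 96 in replicate 1 and 89 in replicate 2. The same region thus stands at 2 places far apart in the list. In the whole combined list, 92 peaks share their coordinates with another.

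The highest-ranked site of the centre lay at 9546771 to 9547176, 406 bp wide. It was number 10 of the combined list, number 16 in replicate 1 and number 10 in replicate 2. The midpoints of its replicate peaks were 1.5 bp apart. The second, at 10897165 to 10897541, was number 16, with number 9 in replicate 1 and number 34 in replicate 2. Both replicates thus placed these sites among their first 34 peaks.

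The third site, number 25 at 9789829 to 9790249, ranked 41 and 18 in the replicates. The fourth, number 37, is the region from 9344112 to 9344676 that is listed again as 481, and its partners ranked 35 and 29. The fifth, number 86 at 8606212 to 8606692, ranked 96 and 89. These 5 were close in rank in both replicates. After them came number 90 at 10965503 to 10965828, number 94 at 13565269 to 13565614 and number 105 at 10536836 to 10537181, whose partners ranked from 103 to 122 in replicate 1 and from 86 to 102 in replicate 2. Number 158 at 7196469 to 7196816 and number 159 at 13678570 to 13678886 ranked higher in replicate 1, at 98 and 85, than in replicate 2, at 276 and 340.

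The next 10 sites of the centre were numbers 171, 175, 183, 200, 205, 223, 228, 240, 246 and 331. Number 240, at 9730893 to 9731441, and number 246, at 12465324 to 12465792, were ranked higher by replicate 2, at 146 and 139, than by replicate 1, at 369 and 419. Number 331, at 11764413 to 11764702, was ranked 239 by replicate 1 and 529 by replicate 2. Over the 20 sites the replicate numbers ran from 9 to 419 in replicate 1, with a median of 127, and from 10 to 529 in replicate 2, with a median of 143. All 20 had the highest score, so their order rests on the peak number. They were spread along the centre, with 5 from 9 to 10 Mb, 4 from 10 to 11 Mb, 4 from 12 to 13 Mb and between 1 and 3 in each of the other windows. Of the 20, 7 belonged to a cluster.

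Within the combined list, no difference between centre and arms was detected in the share of peaks in its first 50%. That test covers 1 cut of the list only. By successive 10% of the list, the density ratio of centre over arms ran from 1.36 in the last to 2.47 in the sixth. Those steps were not tested. Of the centre peaks, 222 of 447 (49.7%, exact 95% interval 44.9 to 54.4%) were in the first 50% of the list, and of the arm peaks 244 of 487 (50.1%, 45.6 to 54.6%). The odds ratio was 0.98 (95% interval 0.75 to 1.28, Fisher's exact test, two-sided, adjusted p = 0.90), so a modest difference in either direction is within the interval. Of the first 500 peaks of the whole list, 38 (7.6%) lay in the centre, which holds 6.88% of all combined peaks. The arms, which hold 7.499% of all combined peaks, had 30 of the first 500. This difference was not tested.

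Most sites had 1 common width. In the centre 307 of 447 peaks (68.7%, 64.2 to 73.0%) were exactly 456 bp wide, against 325 of 487 in the arms (66.7%, 62.4 to 70.9%) and 67.3% of all combined peaks. The odds ratio was 1.09 (0.82 to 1.45, Fisher's exact test, adjusted p = 0.66). Width went with rank. Of the 89 highest-ranked centre peaks, 1 had the common width and their median was 274 bp, with quartiles of 244 and 347 bp. Among the next 89, 47 had the common width, and among the 90 lowest-ranked, 89 did. The narrowest sites were therefore not the first ones but came after them, as the plot of width by peak number shows.

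Narrow sites were less frequent in the centre than in the arms of the combined list. Peaks under 200 bp numbered 35 of 447 in the centre (7.83%, 5.51 to 10.7%) and 66 of 487 in the arms (13.6%, 10.6 to 16.9%), against 10.1% of all combined peaks. The odds ratio was 0.54 (0.34 to 0.85, Fisher's exact test, p = 0.0059, adjusted over 3 tests that were chosen after values had been seen). Both arms lay above the centre, the left with 14.2% and the right with 12.7%. With 1 replicate left out, taking as many peaks from the other replicate's list, the shares were 4.62% and 5.70% in replicate 2 and 7.79% and 10.4% in replicate 1, and the difference no longer passed the test (adjusted p = 0.46 and 0.17 by Fisher's exact test).

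The narrow sites of the centre had a median peak number of 1641, and 34 of the 35 overlapped a peak in both replicates. The narrowest were 2 peaks of 114 bp, number 2686 at 8302623 to 8302736 and number 1493 at 9692305 to 9692418, and 1 of 115 bp, number 4916 at 11532374 to 11532488. The widest was number 3900, 602 bp from 9730893 to 9731494. It starts at the same base as number 240, 549 bp wide, and holds it entirely. Numbers 37 and 481, with the same coordinates, were next at 565 bp. The widest sites of the centre thus include regions that were listed more than once.

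**Figure D3:**
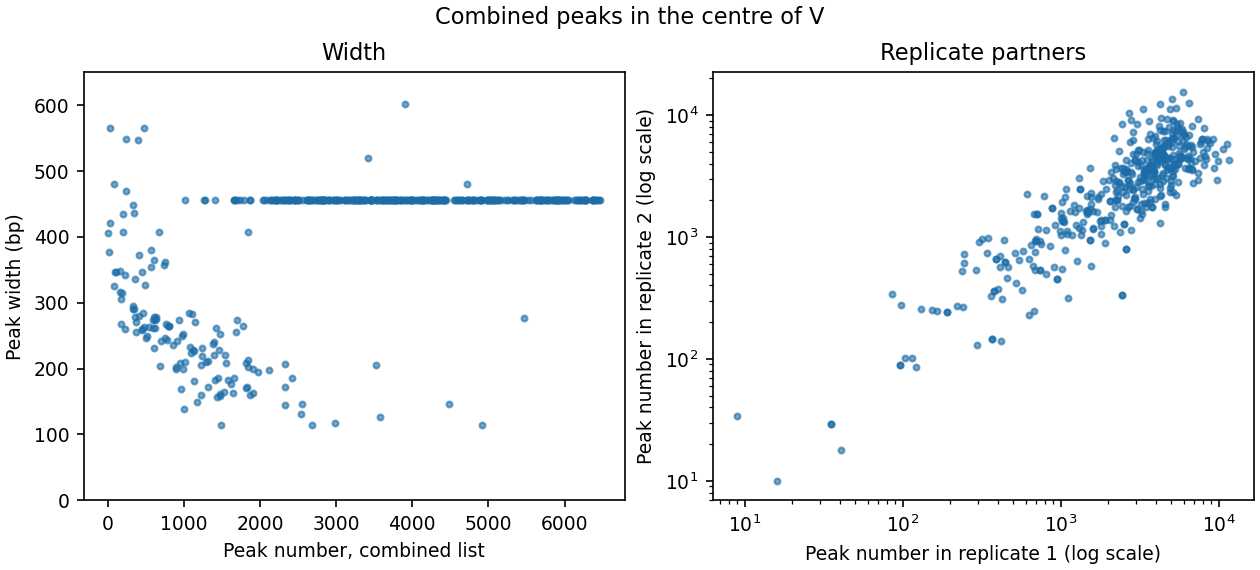
Left, width in bp of each combined peak in the centre of V against its peak number. Right, the lowest peak number among overlapping peaks in replicate 1 against that in replicate 2, on log axes, for the 444 sites with a peak in both. Width falls over the first ranks and then stands at 456 bp for most sites.

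Nearly every site of the centre overlapped a peak in both replicates by at least 1 bp. Of the 447, 444 (99.3%, 98.1 to 99.9%) shared at least 1 bp with a peak in each, against 486 of 487 in the arms (99.8%) and 99.4% of all combined peaks. The difference did not pass the test (odds ratio 0.30, 95% interval 0.0058 to 3.81, Fisher's exact test, adjusted p = 0.51). With 50% reciprocal overlap the shares fell to 85.5% in the centre and 81.3% in the arms (adjusted p = 0.16 by Fisher's exact test). The combined list was made from these samples, so this share is no independent evidence of binding.

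The 3 sites without full support all lacked a peak in replicate 1. Number 2234 at 12763408 to 12763863 had partner number 2430 in replicate 2, and the nearest peak of replicate 1 was 11137 bp away. Number 2991 at 10134245 to 10134361, only 117 bp wide, had partner number 3005 and lay 11258 bp from the nearest replicate 1 peak. Number 6224 at 11835993 to 11836448 had partner number 6636, and a replicate 1 peak lay 1530 bp away. The first and second were thus far from any replicate 1 peak while ranking in the upper part of replicate 2.

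Where both replicates had a peak, they placed it at nearly the same position. The midpoints of the replicate peaks were a median of 24.5 bp apart in the centre and 26.0 bp in the arms. They were within 100 bp at 395 of the 444 centre sites (89.0%), against 90.1% in the arms. Both partners had to overlap the same combined peak, which limits this distance. Both partners were among the first 6494 peaks of their lists for 368 of the 444 (82.9%), against 78.2% in the arms. The lowest-ranked partners were number 11649 in replicate 1 and number 15519 in replicate 2. Over the 444 sites, the peak numbers of the partners had a Spearman correlation of 0.82, against 0.79 over the arm sites. Both are given as a description, since sites share libraries and were all taken from the combined list. Overlapping combined peaks can also share their partners, as numbers 355 and 5447 share 381 in replicate 1 and 362 in replicate 2. Such partners count more than once in the values over the 444 sites. Over all 1146 one-to-one overlapping pairs of replicate peaks in the centre, the correlation was 0.75, and over 1242 pairs in the arms it was 0.76.

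The concentration in the centre weakened down the replicate lists. In the first 50% of replicate 1 the density ratio was 1.79 (1.65 to 1.95), and in the last 50% it was 1.19 (1.10 to 1.29). In replicate 2 it was 2.12 (1.93 to 2.33) and 1.57 (1.44 to 1.72). Centre peaks were thus more often in the first 50% than arm peaks, at 52.9% against 42.7% in replicate 1 (odds ratio 1.51, 1.34 to 1.70) and 49.8% against 42.4% in replicate 2 (odds ratio 1.35, 1.19 to 1.53). By Fisher's exact test, adjusted over the same 3 later-chosen tests, p was 1.1e-11 and 6.2e-06. In the last 10% of replicate 1 the centre held 34.1% of V peaks (95% interval 30.0 to 38.4%), near its 33.5% share of the length of V, while in replicate 2 it still held 41.7% (37.1 to 46.4%). In the combined list the first and last 50% had ratios of 1.81 (1.50 to 2.18) and 1.84 (1.53 to 2.22). Its first 10% held 54.7% of V peaks in the centre (44.2 to 65.0%) and its last 10% held 40.6% (30.9 to 50.8%), with 55.4% in the sixth 10%. These intervals overlap, and the difference was not tested.

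**Figure D4:**
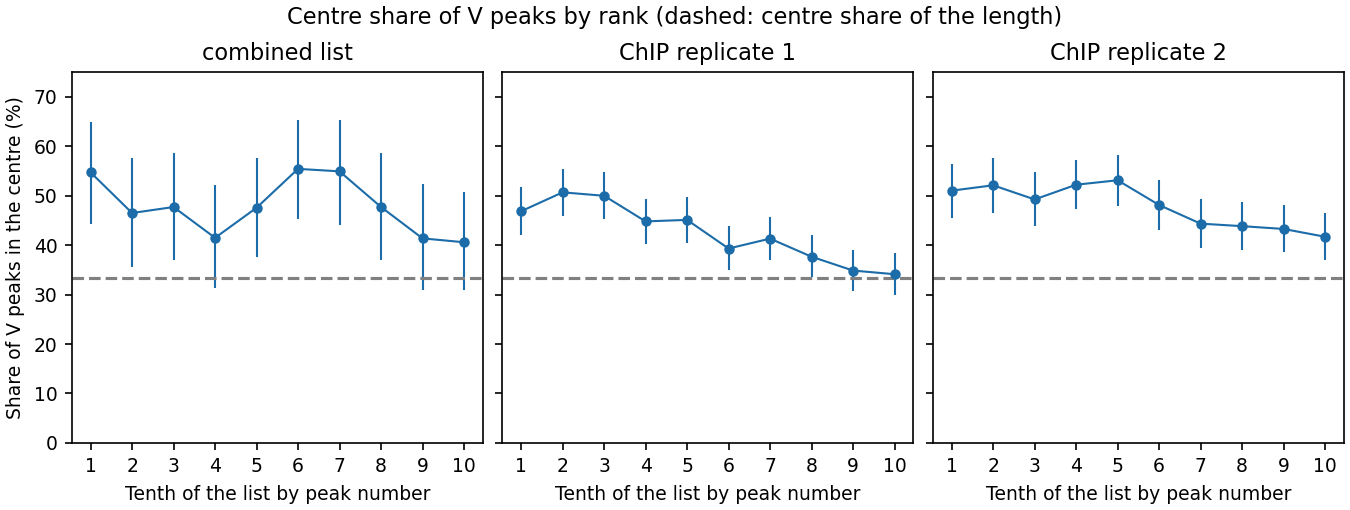
Share of the V peaks that lie in the centre, in percent, for each successive 10% of a list by peak number, with exact 95% intervals. The dashed line is the centre's share of the length, 33.5%, which replicate 1 nears at 34.1% in its last 10% while replicate 2 stands at 41.7%.

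Peaks of replicate 1 recurred in replicate 2 more often in the centre than in the arms. Of the 2001 centre peaks, 1317 (65.8%, 63.7 to 67.9%) overlapped a replicate 2 peak, and of the 2750 arm peaks 1420 did (51.6%, 49.7 to 53.5%), against 58.6% of all replicate 1 peaks. The odds ratio was 1.80 (1.60 to 2.03, Fisher's exact test, adjusted p = 3.8e-22). In the opposite direction, 1281 of 1855 replicate 2 peaks in the centre recurred (69.1%, 66.9 to 71.2%) and 1361 of 2042 in the arms (66.7%, 64.6 to 68.7%), against 71.8% of all replicate 2 peaks. That difference did not pass the test (odds ratio 1.12, 0.97 to 1.28, adjusted p = 0.19 by Fisher's exact test). Covered length moved with the first difference, and its part in it was not tested: replicate 2 peaks covered 10.97% of the centre and 6.19% of the arms, and replicate 1 peaks covered 11.5% and 8.11%.

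By rank, the difference in replicate 1 was larger in the lower part of the list. In the first 50%, 82.8% of centre peaks and 78.5% of arm peaks recurred (adjusted p = 0.024 by Fisher's exact test), a difference of 4.28 percentage points against 14.2 over the full list. In the second 10% of the list 97.3% of centre peaks and 98.6% of arm peaks recurred, and in the third 84.2% and 85.1%. In the seventh 10% the shares were 55.1% and 36.4%, and in the last 10% they were 36.6% and 25.0%. From the fourth 10% on, the centre was higher in each of the 7 steps. In replicate 2 each of the first 7 steps had the lower share in the centre, such as 78.6% against 85.4% in the fourth. Over the first 50% of replicate 2, the share was 86.0% in the centre and 89.7% in the arms (adjusted p = 0.034 by Fisher's exact test), so the direction there was opposite to that over the full list.

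**Figure D5:**
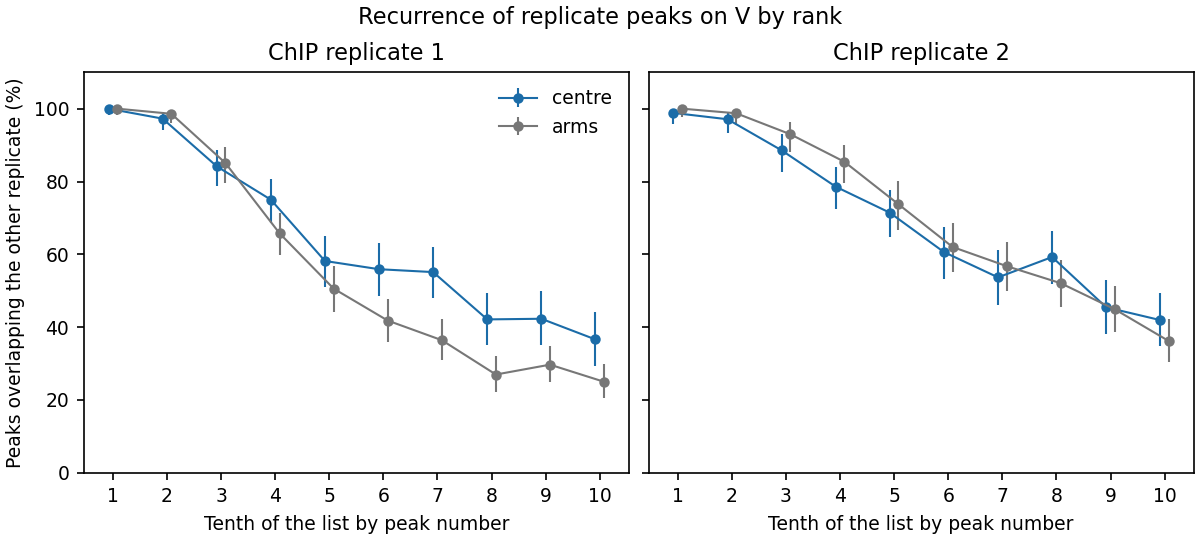
Share of V peaks of each replicate that overlap a peak of the other, in percent, for each successive 10% of the list by peak number, in the centre (blue) and the arms (grey), with exact 95% intervals. In replicate 1 the lines part from the fourth step on, and in the last they stand at 36.6% and 25.0%.

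A larger share of replicate 1 peaks overlapped a combined peak in the centre than in the arms. The share was 526 of 2001 in the centre (26.3%, 24.4 to 28.3%) and 590 of 2750 in the arms (21.5%, 19.9 to 23.0%), with 26.7% for all replicate 1 peaks (odds ratio 1.31, 1.14 to 1.50, Fisher's exact test, adjusted p = 0.00024). For replicate 2 it was 540 of 1855 (29.1%, 27.1 to 31.2%) and 579 of 2042 (28.4%, 26.4 to 30.4%), with 33.5% for all replicate 2 peaks, and the difference did not pass the test (odds ratio 1.04, 0.90 to 1.20, adjusted p = 0.69 by Fisher's exact test). Within the first 50% of the lists both differences turned to the other side. In replicate 1 the shares were 46.2% and 46.9% (adjusted p = 0.82), and in replicate 2 they were 52.98% and 59.8% (adjusted p = 0.0070), both by Fisher's exact test.

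Some highly ranked replicate peaks of the centre had no counterpart in the combined list. Among the first 6494 peaks of each replicate, these were 62 of 462 centre peaks in replicate 1 and 68 of 476 in replicate 2, beside 37 of 472 and 40 of 456 in the arms. The share over the other chromosomes was not computed, so these counts set the centre beside the arms of V only. The difference was not tested. In replicate 1 the best was number 2089 at 11239150 to 11239599, which overlapped number 3992 of replicate 2 and lay 10.5 kb from the nearest combined midpoint. It was thus found in both replicates, and is absent from the combined list. Next came numbers 3095, 4690, 4847 and 4909, at between 0.789 and 1.05 kb from the nearest combined midpoint. In replicate 2 the best was number 1056 at 8569840 to 8570299, 24.4 kb from the nearest combined midpoint and without a partner in replicate 1. Numbers 2161 at 10736675 to 10737134 and 2447 at 11733388 to 11733847 also had no partner. The other 2 of its first 5, numbers 3215 and 3216, overlapped numbers 7026 and 18593 of replicate 1.

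As over the whole lists, most replicate peaks of the centre lay outside the combined list. In replicate 1 these were 1475 peaks (73.7%, against 78.5% in the arms and 73.3% of all its peaks), of which 791 (53.6%) overlapped a replicate 2 peak, beside 38.5% in the arms and 43.6% over the whole list. In replicate 2 they were 1315 (70.9%, against 71.6% in the arms and 66.5% of all its peaks), of which 745 (56.7%) overlapped a replicate 1 peak, beside 53.6% in the arms and 57.8% over the whole list. These differences in recurrence were not tested. The rule by which the combined list was formed is not given in the sources used here.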

How the data were processed

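Peaks were analysed from 3 deposited lists in GFF version 3 on WormBase build WS220, per the file headers: 1 for each of 2 ChIP samples and 1 combined. The source column names the SPP caller and IDR, by which peaks are ranked for reproducibility. Not given in the sources used here are the aligner, the thresholds, the use of the 2 input samples and the rule of combination. Each peak carries the authors' score, of unstated scale. Peaks were ordered by peak number, and the score served to count sites at its highest value and as an alternative order.

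A peak belonged to the centre of V when its midpoint lay from 7 to 14 Mb, and to the arms otherwise. The length of V, 20.9 Mb, was taken as the largest peak end. Overlap meant at least 1 shared bp, and a site's partner was the overlapping replicate peak with the lowest number. Densities were compared by exact binomial tests and shares by Fisher's exact tests, two-sided, with intervals at 95% (Poisson, Clopper-Pearson, conditional odds ratio), adjusted by Benjamini-Hochberg over 10 tests. A further 3 tests, on ranks in the replicates and on narrow peaks, were added after values had been seen and adjusted among themselves. With 2 ChIP samples no test over samples was made. P-values therefore describe peaks within these lists. The density, share and overlap steps were tested on simulated peaks and counts drawn independently. That check does not cover peaks that vary together along the chromosome.

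The sites, named peaks and tests were chosen with earlier results of these data known. Named were the 20 lowest-numbered centre peaks, those lacking in a replicate, the 3 largest clusters, the densest windows, the 3 longest empty stretches, the 3 narrowest and widest peaks and, per replicate, the 5 best peaks outside the combined list. Tests were run with scipy 1.17.1 in Python 3.11.15, tables were handled with pandas 2.3.3 and numpy 2.4.6, and plots were drawn with matplotlib 3.10.9.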

Additional observations from a re-analysis of the deposited data

How the results depend on the processing

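Of 85 comparisons of a tested result with an alternative, 75 kept direction and side of the threshold, 2 fell below the threshold and 8 changed direction. The 75 include alternatives that left the value unchanged. Ordering by score did so for the share of combined peaks in the first 50%, and placing peaks by their start for the density ratios of all lists. The density ratio set beside that of the combined list ran from 1.81 to 2.08 over 11 alternatives, among them other limits of the centre and merged peaks. The alternatives without replicate 1 (2.08) or replicate 2 (1.95) use the first peaks of the other replicate's list and no combined list. Among the other alternatives the highest ratio was 2.02, with limits of 7 to 15 Mb. In replicate 1 the ratio ran from 1.19 to 1.79 and in replicate 2 from 1.57 to 2.12, over 7 alternatives each. The lowest of replicate 1 came from its last 50%. Centre minus arms, in percentage points, changed direction as follows. In the first 50% of the replicate lists, the share overlapping a combined peak went to -0.76 in replicate 1 and -6.79 in replicate 2, and the recurrence of replicate 2 went to -3.69. The share of combined peaks in the first 50% of the list went from -0.44 to 0.46 with limits of 7 to 15 Mb, and the share in the first 10% was 2.80. With 50% reciprocal overlap, support in both replicates went from -0.47 to 4.14. The share of the common width went from 1.94 to between -1.52 and -1.23 with a replicate left out, and the share of narrow peaks from -5.72 to between -2.59 and -1.08. The causes were not tested. Limits of 7 to 15 Mb, the last 50% of the lists and single counting of identical coordinates were chosen after seeing the data. The number of clusters was 63 with gaps of at most 1 kb and 103 with 5 kb. The Spearman correlation of peak numbers between replicates rose from 0.75 to 0.81 over pairs that overlap a combined peak. Recurrence and the densities of single replicates have no value with a replicate left out. No paired analysis was possible because no input list was used here and ChIP samples alone form no pairs. Without read depth, a peak missing from 1 replicate does not show that the site was unbound there.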
